A study of Gallus gallus and Anas platyrhynchos and Coturnix japonica with 11 samples.

Results

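miR-183, miR-96 and miR-182 are the 3 mature miRNAs of the miR-183 cluster, and they are described here across the frontonasal prominence (FNP) mesenchyme of duck, quail and chicken embryos. The members were chosen by name alone, as every row that carries the number of one of these miRNAs under any species prefix, with newly assigned star strands left out. The rule found 3 of the 186 miRNAs in the files. The FNP is the embryonic tissue from which the upper bill forms, and its mesenchyme, which derives from the neural crest (NC), was sampled at Hamburger-Hamilton (HH) stages 25 and 20. The labels name no engineered allele and no treatment in any group, so that species and stage are the factors compared. Sample number and pool size also differed between samples. For each combination of species and stage a first biological sample was pooled from 40 embryos. Duck and chicken had in addition a second biological sample per stage, pooled from 5 embryos, which gives 4 duck, 2 quail and 4 chicken samples. Quail therefore had 1 sample per stage and no replicate. Each sample was a pool, which hides differences between embryos, and the mesenchyme was separated by hand from the surface ectoderm and the forebrain neuroectoderm, so that cells of those layers may have remained.

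A miRNA is a short RNA that base-pairs with messenger RNAs, mainly through its seed near the 5′ end, and lowers their stability and translation. The miR-183 cluster is made from one primary transcript in vertebrates, and in mouse and zebrafish it is best known from sensory cells, such as the hair cells of the inner ear, the photoreceptors of the retina, olfactory cells and sensory neurons. Mutations in the seed of miR-96 cause hearing loss in mouse and human. The frontonasal mesenchyme itself is not a sensory tissue, but it borders the olfactory epithelium and the forebrain.

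The mature sequences, as the deposited files give them, are shown to compare the members with each other and with the other miRNAs, in the seed and outside it. Capitals mark bases 2 to 8 from the 5′ end.
miR-183: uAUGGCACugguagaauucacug
miR-96: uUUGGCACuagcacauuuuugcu
miR-182: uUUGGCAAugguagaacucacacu
miR-96 and miR-182 had the same bases 2 to 7 and differed at base 8, and miR-183 differed from miR-96 at 1 base of the seed and from miR-182 at 2. Over the whole length the nearest pair was another one, as miR-183 and miR-182 differed at 5 of 23 aligned bases, miR-183 and miR-96 at 10 and miR-96 and miR-182 at 11. No other miRNA in the files had the 2 to 8 seed of a member, and none lay within the 2 mismatches that the mapping allowed, so full-length reads of the members could not be exchanged with each other or with another listed miRNA. The miR-183 row carries a chicken name, while the miR-96 and miR-182 rows carry the names of the human miRNAs through which they were matched. In the RefSeq chicken annotation (assembly GRCg7b) the genes MIR182, MIR96 and MIR183 follow each other in this order on chromosome 1, with 0 other gene starts between them.

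Values are normalized read counts per 1000000 reads (PMMR). Libraries held 3097711 to 10894243 reads, so that 1 read was worth 0.0918 to 0.323 PMMR. All 3 members were detected in every library, with 672 to 21787 reads for miR-183, 1178 to 49415 reads for miR-182 and 20 to 777 reads for miR-96. The first chicken sample at HH25 stood apart from the rest over all miRNAs: 45 of 186 lay more than 4-fold from their mean in the other samples, against 3 to 13 in each of the other 9 samples. The main results that rest on it are given with and without it. Nothing in the labels says that samples came from separate days or parents, so p-values measure the spread between these pools only.

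miR-183 was a well expressed miRNA, ranking from the 35th to the 98th most abundant of the 186 miRNAs across libraries. In duck it measured 2654 and 796 PMMR at HH25 (first and second sample) and 2623 and 2079.8 PMMR at HH20. In quail it measured 1142 PMMR at HH25 and 713 PMMR at HH20. In chicken it measured 184 and 2698 PMMR at HH25 and 1270.2 and 1289 PMMR at HH20. The lowest and the highest of the 10 samples, 14.7-fold apart, were thus the 2 chicken samples at HH25, whereas the 2 chicken samples at HH20 were nearly equal.

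miR-182 was the most abundant member in every sample and ranked from the 26th to the 78th place. Duck samples held 4681 and 1947 PMMR at HH25 and 4595 and 5336 PMMR at HH20. Quail samples held 1997 PMMR at HH25 and 1624 PMMR at HH20. Chicken samples held 322 and 6174 PMMR at HH25 and 2684 and 4024 PMMR at HH20. As for miR-183, the extremes of all samples, 19.2-fold apart, were both chicken at HH25.

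miR-96, the member whose seed mutations affect hearing, was the least abundant, between the 104th and the 170th place. In duck it measured 62.6 and 30.4 PMMR at HH25 and 113 and 83.9 PMMR at HH20. In quail it measured 24.9 PMMR at HH25 and 45.8 PMMR at HH20. In chicken it measured 5.47 and 42.3 PMMR at HH25 and 40.2 and 21.6 PMMR at HH20. The lowest value was again that of the first chicken sample at HH25 (20 reads, 95% Wilson interval 3.54 to 8.44 PMMR, counting error only), but the highest was that of the first duck sample at HH20, 20.7-fold above it.

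**Figure D1:**
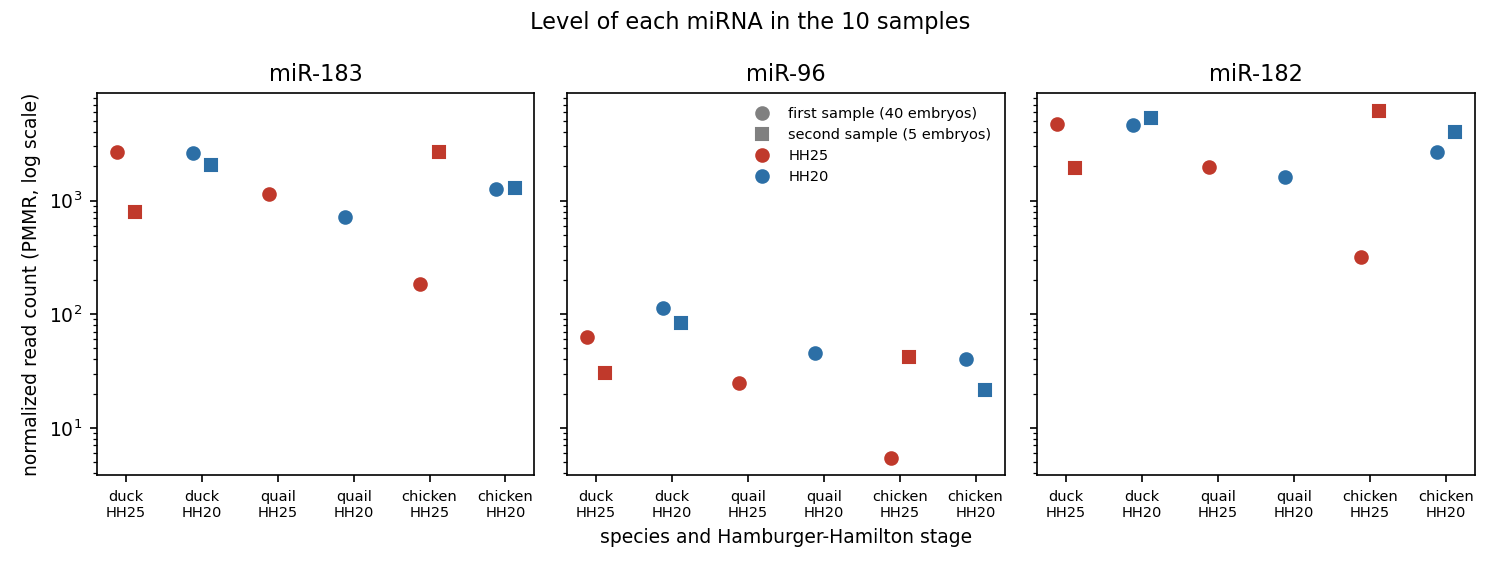
Normalized read count (PMMR, log scale) of miR-183, miR-96 and miR-182 in the 10 samples, by species and stage, with first samples as circles, second samples as squares, HH25 in red and HH20 in blue. The 2 chicken samples at HH25 are the lowest and the highest for miR-183 and miR-182, the extremes for miR-96 are the first samples of chicken at HH25 and duck at HH20, and miR-96 lies below the other members in every sample.

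By group, miR-183 averaged 1725 ± 1314 PMMR in duck at HH25, 2351 ± 384 PMMR in duck at HH20, 1441 ± 1778 PMMR in chicken at HH25 and 1279 ± 13.0 PMMR in chicken at HH20 (SD, n = 2 each). miR-182 averaged 3314 ± 1933 PMMR in duck at HH25, 4965 ± 524 PMMR in duck at HH20, 3248 ± 4138 PMMR in chicken at HH25 and 3354 ± 947 PMMR in chicken at HH20. miR-96 averaged 46.5 ± 22.8 PMMR in duck at HH25, 98.6 ± 20.8 PMMR in duck at HH20, 23.9 ± 26.0 PMMR in chicken at HH25 and 30.9 ± 13.1 PMMR in chicken at HH20. Duck at HH20 thus had the highest mean of each member, and its lead over the next group exceeded the SD of both groups for miR-182 and miR-96, but not for miR-183. For the means that follow, each gap to the next group with 2 samples was smaller than the SD of at least 1 of the pair. The single quail samples lay below all of these means for miR-183 and miR-182, while for miR-96 quail at HH20 lay just below duck at HH25.

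Within a sample the members kept a steady order and, for miR-182 and miR-183, a steady proportion. The cluster made up from 0.0511% of all reads (chicken HH25, first sample) to 0.891% (chicken HH25, second sample), with a median of 0.466% over the 10 samples. miR-182 supplied 62.7% to 75.4% of the reads of the cluster, miR-183 24.2% to 36.1% and miR-96 0.406% to 1.92%. The ratio of miR-182 to miR-183 ranged only 1.79-fold, between 1.75 and 3.12, while each of the pair ranged 14.7-fold or more. The width of these level ranges rested on 1 library, the first chicken pool of HH25. The other samples spanned 713 to 2698 PMMR for miR-183 and 1624 to 6174 PMMR for miR-182, and their ratio still ran from 1.75 to 3.12. The ratio was 1.76 and 2.45 in duck at HH25, 1.75 and 2.57 in duck at HH20, 1.75 in quail at HH25, 2.28 in quail at HH20, 1.75 and 2.29 in chicken at HH25 and 2.11 and 3.12 in chicken at HH20. The first chicken sample at HH25, the lowest in level, therefore had the same ratio as the first duck and quail samples of that stage.

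The proportion of miR-96 varied more. Its ratio to miR-183 was 0.0236 and 0.0382 in duck at HH25, 0.0432 and 0.0403 in duck at HH20, 0.0218 in quail at HH25, 0.0642 in quail at HH20, 0.0298 and 0.0157 in chicken at HH25 and 0.0316 and 0.0168 in chicken at HH20, a 4.09-fold range. Its ratio to miR-182 ranged 5.24-fold. Chicken at HH25 had its second sample sequenced in 2 runs, in which miR-96 measured 49.4 and 35.2 PMMR, placing the ratio to miR-183 at 0.0206 and 0.0118 in one and the same sample.

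**Figure D2:**
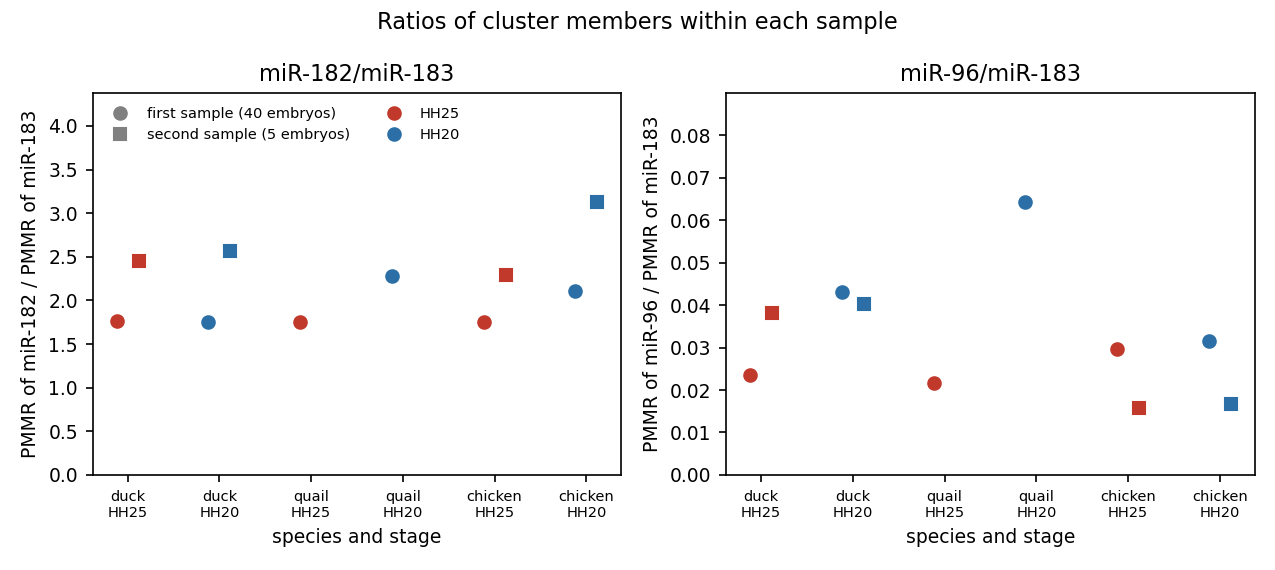
Ratio of the PMMR of miR-182 (left) and of miR-96 (right) to that of miR-183 within each of the 10 samples, by species and stage, on linear axes that start at 0. The ratio of miR-182 stays between 1.75 and 3.12, with the second samples (squares) above the first (circles) in duck and chicken, and the ratio of miR-96 spreads between 0.0157 and 0.0642.

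Ratios were compared between stages and species with two-sided exact permutation tests, in which labels were exchanged within species or within stages. The log2 ratio of miR-96 to miR-183 was 0.54 lower at HH25, with means of -5.34 ± 0.48 at HH25 and -4.80 ± 0.71 at HH20 (SD, n = 5 each; exact p = 0.139, adjusted p = 0.417 over 6 tests). It was 0.67 higher in duck than in chicken (-4.82 ± 0.40 in duck and -5.49 ± 0.53 in chicken, SD, n = 4 each; exact p = 0.111, adjusted p = 0.417). The log2 ratio of miR-182 to miR-183 differed by -0.23 between HH25 and HH20 (exact p = 0.333) and by -0.11 between duck and chicken (exact p = 0.667). None of the 6 ratio tests, which include miR-96 to miR-182, reached 0.05 even unadjusted. The smallest p that the design allows is 0.0278 for stage and 0.0556 for species, so no species test could have reached 0.05.

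miR-182 and miR-96 were also the miRNAs most like miR-183 across samples. Likeness was measured as the SD over the 10 samples of the log2 ratio to miR-183, on PMMR + 1. miR-182 came first of the 185 other miRNAs with an SD of 0.289 and miR-96 second with 0.636, where the median miRNA had 1.47 and the least alike 3.18. As a description, Pearson's r of the log2 values with miR-183 was 0.97 for miR-182 and 0.85 for miR-96 over these 10 samples, which share libraries and scaling. After them came miR-429 (SD 0.821), a member of the epithelial miR-200 family, miR-143 (0.846), a miRNA of smooth muscle and mesenchyme, miR-126 (0.856), a miRNA of endothelium, the star strand of miR-144 (0.896), from an erythroid precursor, and miR-223 (0.932), a myeloid miRNA. The places of these 5 rested on 1 library: without the first chicken sample of HH25, they took places 38 (miR-429, SD 0.865), 50 (miR-143), 46 (miR-126), 56 (the star strand of miR-144) and 60 (miR-223).

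The place of miR-182 depended little on which samples were taken, and that of miR-96 more. These subsets were chosen after the values were seen. Without the first chicken sample at HH25, miR-182 stayed first with an SD of 0.286 and miR-96 took place 3 with 0.671, behind miR-103 (0.655). miR-182 came first also in the 6 first samples (0.170), in the 4 second samples (0.193) and in the 4 chicken samples (0.348), and second in the 4 duck samples (0.296). miR-96 came second in the 6 first samples (0.570, where the star strand of miR-144 had the same value to 3 digits), and took place 3 in the 4 duck samples, place 5 in the 4 chicken samples and place 18 in the 4 second samples. Seen from miR-96, which has the fewest reads, miR-183 took place 4 (0.636), miR-182 place 6 (0.734) and miR-429 place 1 (0.580). Without the first chicken sample at HH25, miR-183 took place 9 (0.671) and miR-182 place 25 (0.758) in that view.

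**Figure D3:**
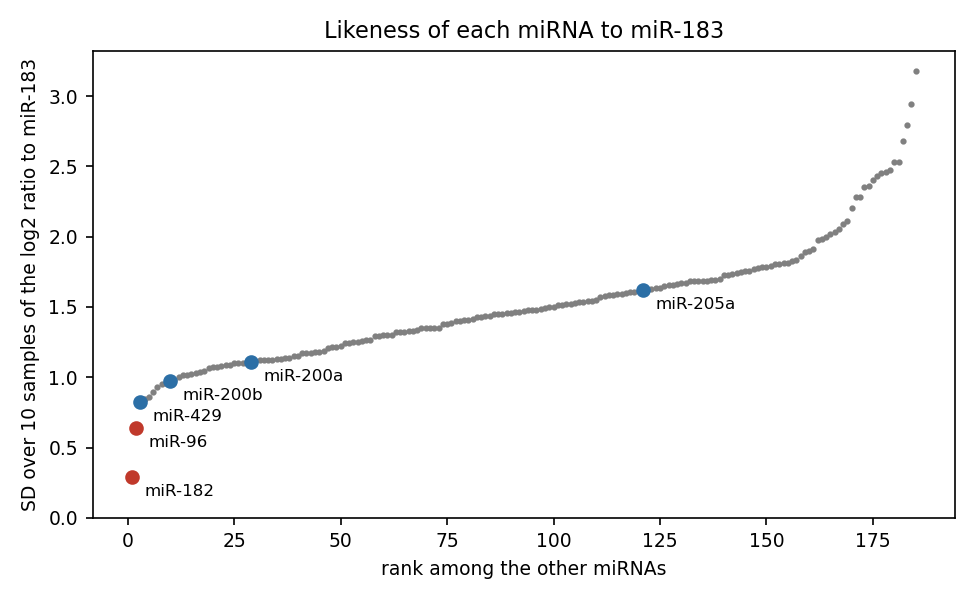
SD over the 10 samples of the log2 ratio to miR-183 (vertical axis, log2 units) for each of the 185 other miRNAs, ranked from most to least alike. The cluster members miR-182 (0.289) and miR-96 (0.636) are in red at the left end, and 4 epithelial miRNAs are in blue, of which miR-429 (0.821, place 38 without the first chicken sample of HH25) is the nearest and miR-205a (1.62) the farthest.

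Stage was compared across the 3 species with limma's moderated test on log2(PMMR + 1), with species as a term and Benjamini-Hochberg adjustment over all 186 miRNAs. All 3 members were on average lower at HH25, and none of them passed. 1.61% of the 186 miRNAs were called lower at HH25 and 1.61% higher. miR-96 differed by -0.97 between HH25 and HH20 (SE 0.52, 95% interval -2.14 to 0.20, adjusted p = 0.329), with medians of 30.4 PMMR at HH25 and 45.8 PMMR at HH20. miR-183 differed by -0.48 (SE 0.66, 95% interval -1.96 to 0.99, adjusted p = 0.708) and miR-182 by -0.71 (SE 0.69, 95% interval -2.24 to 0.82, adjusted p = 0.592), while the median over all miRNAs was 0.06. The interval for miR-183 spans levels at HH25 from 0.258-fold to 1.99-fold of those at HH20.

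The averages of miR-183 and miR-182 rested on the chicken samples at HH25, which changed the size but not the direction of that of miR-96. Without the first of them, the stage difference was 0.17 (SE 0.39) for miR-183 and 0.02 (SE 0.35) for miR-182, and that of miR-96 was -0.57 (SE 0.42, adjusted p = 0.489 by limma). Without the second of them it was -1.02 for miR-183, -1.29 for miR-182 and -1.41 for miR-96 (adjusted p = 0.123 to 0.267 by limma).

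Within chicken the pools of each sample number moved in opposite directions. In the first samples HH25 was lower than HH20 by 6.92-fold for miR-183, 7.34-fold for miR-96 and 8.33-fold for miR-182, and in the second samples it was higher by 2.09-fold, 1.96-fold and 1.53-fold. The 2-fold rule used here is the ratio part of the study's criterion, 2-fold or more where either library exceeds 15 PMMR. The study also used Fisher's exact test with Bonferroni correction, and DESeq, and it named miR-96 as lower at HH25 in all 3 species. Under the 2-fold rule all 3 members passed as lower in the first samples, as did 19.9% of all miRNAs. Only miR-183 passed as higher in the second, where 19.9% did. The limma differences were -0.86 for miR-183, -0.87 for miR-96 and -1.22 for miR-182 (adjusted p = 0.767, 0.713 and 0.675). Limma called 0 of 186 miRNAs here, 11.3% of them had an unadjusted p under 0.05, and no member was among these. With the second chicken sample at HH25 left out, the differences were -2.79, -2.24 and -3.35 in the same order. With the first left out they were 1.08, 0.50 and 0.91. Each of these fits leaves 1 chicken sample at HH25, so no call is drawn from them.

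Within duck, miR-183 and miR-182 were at nearly the same level at both stages in the first samples (HH25 over HH20 1.01-fold and 1.02-fold), and in the second samples HH25 was lower by 2.61-fold for miR-183 and 2.74-fold for miR-182. miR-96 was lower at HH25 in both, 1.81-fold in the first samples and 2.76-fold in the second. In the second samples all 3 members passed the 2-fold rule as lower, as did 12.4% of all miRNAs. miR-96 is the member whose duck samples did not overlap between stages. 21.5% of all miRNAs had non-overlapping lower values at HH25 in duck, so this is a common pattern with 2 samples a group. Its limma difference was -1.14 (SE 0.96, adjusted p = 0.951), and those of miR-183 and miR-182 were -0.68 and -0.71 (both adjusted p = 0.951). 0 of 186 miRNAs were called, and 4.84% had an unadjusted p under 0.05, no member among them.

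In quail, with 1 sample a stage and no test, HH25 was 1.60-fold higher for miR-183, 1.23-fold higher for miR-182 and 1.84-fold lower for miR-96, and none met the 2-fold rule, which 4.84% of miRNAs met as higher and 11.3% as lower. The difference between the stage effects of duck and chicken was 0.17 for miR-183, -0.27 for miR-96 and 0.51 for miR-182 (limma, adjusted p = 0.996 each). 0 of 186 miRNAs were called for it, and 0.538% had an unadjusted p under 0.05. Without the second chicken sample at HH25 it was 2.11, 1.10 and 2.63 in the same order, from a fit with 1 chicken sample at that stage. Without the first it was -1.76, -1.65 and -1.62.

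Between species, all 3 members averaged higher in duck than in chicken over both stages, and none passed. The limma differences amount to 1.94-fold for miR-183, 2.93-fold for miR-96 and 1.79-fold for miR-182. These folds compare means of log2 values, in which low samples weigh more, and exceed the ratios of the PMMR averages given below. limma called 6.45% of miRNAs higher in duck and 3.23% lower. miR-96 averaged 72.5 ± 34.9 PMMR in duck and 27.4 ± 17.3 PMMR in chicken (SD, n = 4 each). Its means of log2 values differed by 1.55 (SE 0.63, 95% interval 0.14 to 2.97), and the unadjusted p of 0.0346 by limma became 0.157 after Benjamini-Hochberg adjustment. This test of miR-96 was the only one of 27 member tests, 3 members in 9 comparisons, with an unadjusted p under 0.05, which 22.6% of all miRNAs had in this comparison. With median-centred libraries no member test had one, and with values scaled to the reads on miRNAs the stage difference of miR-96 was the one that did. miR-183 averaged 2038 ± 869 PMMR in duck and 1360.1 ± 1031 PMMR in chicken, and its log2 difference was 0.96 (95% interval -0.74 to 2.65, adjusted p = 0.486 by limma). miR-182 averaged 4140 ± 1499 PMMR in duck and 3301 ± 2452 PMMR in chicken, with 0.84 (95% interval -0.93 to 2.62, adjusted p = 0.590 by limma). The median over all miRNAs was 0.20.

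The 2 chicken samples at HH25 again set the values of miR-183 and miR-182, and changed the size but not the direction of that of miR-96. Without the first, the difference of duck from chicken was 0.16 for miR-183, -0.06 for miR-182 and 1.03 for miR-96 (adjusted p = 0.183 by limma for miR-96). Without the second, it was 1.71, 1.64 and 2.13 in the same order (adjusted p = 0.0719, 0.0805 and 0.0566 by limma).

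At HH20 the 2 duck pools were closer to each other than at HH25, as were the 2 chicken pools. Duck lay above chicken there without overlap for each member, by a log2 difference of 0.87 for miR-183, 1.69 for miR-96 and 0.59 for miR-182 (adjusted p = 0.859, 0.555 and 0.911 by limma). 38.7% of all miRNAs were higher in duck without overlap at this stage, so that this pattern was frequent. limma called 0 of 186 miRNAs, and 12.4% had an unadjusted p under 0.05, no member among them. Duck over chicken was 2.82 for miR-96 in the first samples, against 3.88 in the second, and miR-96 passed the 2-fold rule in both, where 25.3% and 23.7% of miRNAs passed as higher. miR-183 passed in the first samples only (2.06, against 1.61 in the second) and miR-182 in neither (1.71 and 1.33).

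At HH25 the first and second samples gave opposite orders. In the first samples duck exceeded chicken by 14.4-fold for miR-183, 11.4-fold for miR-96 and 14.5-fold for miR-182, when 27.4% of miRNAs passed the 2-fold rule as higher. In the second samples the ratio of duck to chicken was 0.295 for miR-183, 0.718 for miR-96 and 0.315 for miR-182, so that miR-183 and miR-182 passed as lower, with 11.8% of miRNAs. The limma differences over both pairs were 1.04, 1.42 and 1.10 for miR-183, miR-96 and miR-182 (adjusted p = 0.677, 0.566 and 0.677), where 1.08% of miRNAs were called higher and 1.08% lower. With the second chicken sample at HH25 left out, the differences were 2.98, 2.79 and 3.22 in the same order. That fit sets 2 duck samples against the 1 chicken sample that stood apart, so no call is drawn from it. In such fits the lone chicken sample is assumed to vary like the other groups. With the first left out the differences were -0.89, 0.05 and -1.03.

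**Figure D4:**
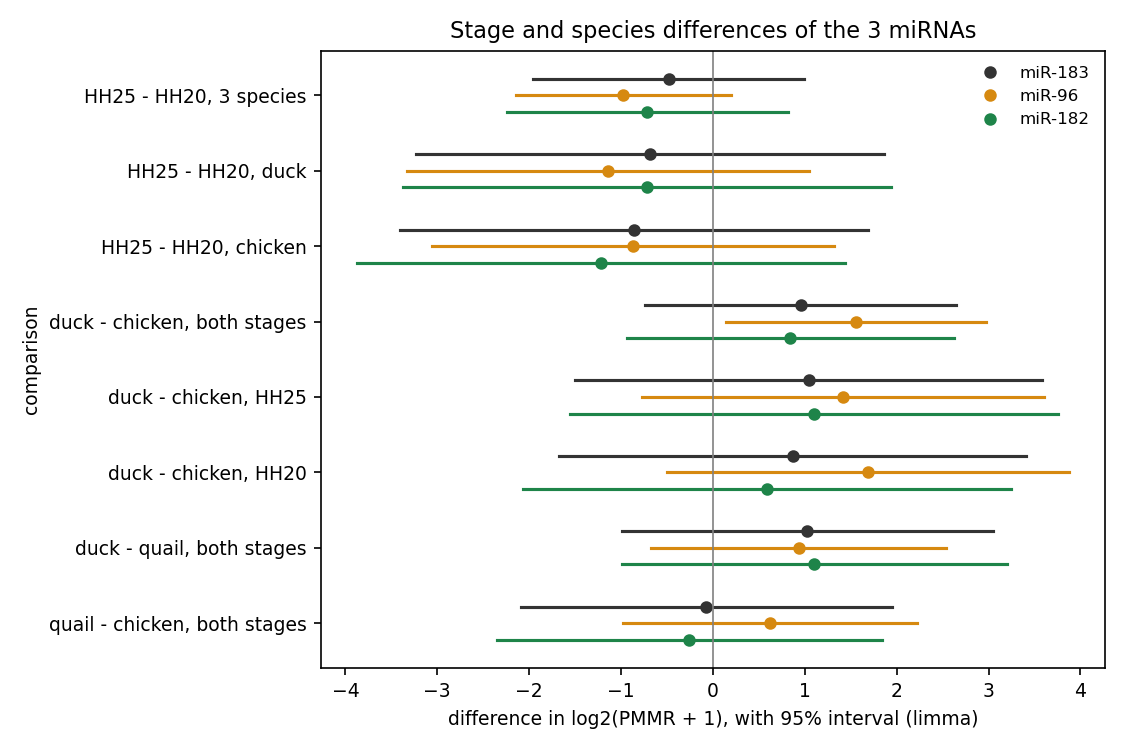
Difference in log2(PMMR + 1) with its 95% interval from limma (horizontal axis) for miR-183, miR-96 and miR-182 in 8 comparisons of stage and species. The interval for miR-96 in duck against chicken over both stages, 0.14 to 2.97, is the only one that does not cross 0 before adjustment.

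Duck against quail, with 1 quail sample per stage, gave the same order for all members at both stages in the first samples. In these first samples duck was higher than quail at HH25 by 2.32-fold for miR-183, 2.52-fold for miR-96 and 2.34-fold for miR-182, and at HH20 by 3.68-fold, 2.48-fold and 2.83-fold. Each of these 6 ratios passed the 2-fold rule, which 17.2% of miRNAs passed as higher at HH25 and 15.1% at HH20. In the second duck samples, miR-183 and miR-182 at HH25 were below the quail sample of that stage, and the groups overlapped over both stages. The limma differences were 1.03 for miR-183, 0.93 for miR-96 and 1.10 for miR-182 (adjusted p = 0.597, 0.514 and 0.581), where 3.76% of miRNAs were called higher in duck and 2.15% lower. These values moved with the single quail samples, to 1.75, 1.01 and 1.73 without quail at HH25 and to 0.30, 0.86 and 0.47 without quail at HH20 (adjusted p = 0.824 to 0.910 by limma). Quail and chicken differed by -0.07, 0.62 and -0.26 in log2 (adjusted p = 0.957, 0.722 and 0.915 by limma), where 0.538% were called in each direction. Against the first chicken samples, quail was 6.22-fold, 4.54-fold and 6.20-fold higher at HH25 in miR-183, miR-96 and miR-182 (25.8% of miRNAs passed as higher). At HH20 its ratios to chicken were 0.561, 1.14 and 0.605.

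Other tissues of the face could be present in the pools, so the miRNAs of neighbouring cell types were followed beside the cluster. The mesenchymal list (miR-199, miR-140 and miR-455, both strands), which marks the labelled tissue, summed to 11916 to 56417 PMMR across the samples and was lowest in the first chicken sample of HH25. All its miRNAs were lowest there, to unequal extents. miR-140-3p, most of the sum, measured 10823 PMMR, against 12042 PMMR or more elsewhere. miR-199 measured 57.4 PMMR, against 1521 to 5005 PMMR, and miR-199* 258 PMMR, against 3724 to 21859 PMMR. Of the list, 5 of 6 miRNAs had a positive limma difference of duck from chicken (median 0.67) and 3 of 6 one between HH25 and HH20 (median -0.11). Without that sample these were 4 of 6 (median 0.06) and 6 of 6 (median 0.66), with miR-140-3p and miR-140-5p passing as higher at HH25. In that stage fit 17 of all 186 miRNAs passed in either direction. The surface ectoderm list held miR-200a, miR-200b, miR-429, miR-203, miR-205a and miR-31, which mark epithelia, and none of its values was at 0 in any sample. It summed to 1555 and 466 PMMR in duck at HH25, 2293 and 718 PMMR in duck at HH20, 767 PMMR in quail at HH25, 1295 PMMR in quail at HH20, 87.2 and 726 PMMR in chicken at HH25 and 665 and 408 PMMR in chicken at HH20. Its lowest sum was that of chicken at HH25, first sample, and its highest that of duck at HH20, first sample, the samples with the lowest and highest miR-96.

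The ectodermal miRNAs moved with the cluster to unequal extents. The 3 members of the miR-200 family, miR-429, miR-200b (SD of the log2 ratio to miR-183 0.972, 10th of 185) and miR-200a (1.11, 29th), were closer to miR-183 than miR-203 (1.27, 57th), miR-31 (61st) and miR-205a (1.62, 121st). Without the first chicken sample of HH25, miR-200b took place 40, miR-200a place 99, miR-203 place 136, miR-31 place 138 and miR-205a place 171. The places of the miR-200 family rested on that sample, but its SDs changed little without it (miR-429 0.865, miR-200b 0.875, miR-200a 1.07). The SD of the median miRNA fell from 1.47 to 1.04. In the first chicken sample at HH25, miR-200b measured 2.19 PMMR, against 33.0 to 212 PMMR in the other samples. 5 of the 6 list members were at their lowest of the 10 samples there, miR-31 being the exception, as was each of the 3 cluster members. All miRNAs of the mesenchymal and smooth muscle lists were lowest there too, so this was not particular to the ectodermal list. By deviation from the other samples, 91.9% to 94.6% of all miRNAs lay higher there than a cluster member. For members of the ectodermal list this share was 79.0% to 98.4%. How many of all miRNAs were at their lowest there was not counted. Of the list, 6 of 6 miRNAs had a positive difference of duck from chicken over both stages, with a median of 1.63 in log2 (all miRNAs 0.20), and 5 of 6 had a negative difference between HH25 and HH20, with a median of -0.83 (all miRNAs 0.06). 0 of 6 passed limma's test in either comparison. Without the first chicken sample of HH25 the counts were 5 of 6 positive, with a median of 0.94 (all miRNAs 0.26), and 5 of 6 negative, with a median of -0.29 (all miRNAs 0.05), and 0 of 6 passed. Of all 186 miRNAs, 42 passed for duck against chicken and 17 for stage in those fits. The part of the surface ectoderm in the levels of the cluster was not tested, and in whole tissue fewer cells of a type and less RNA per cell cannot be told apart.

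**Figure D5:**
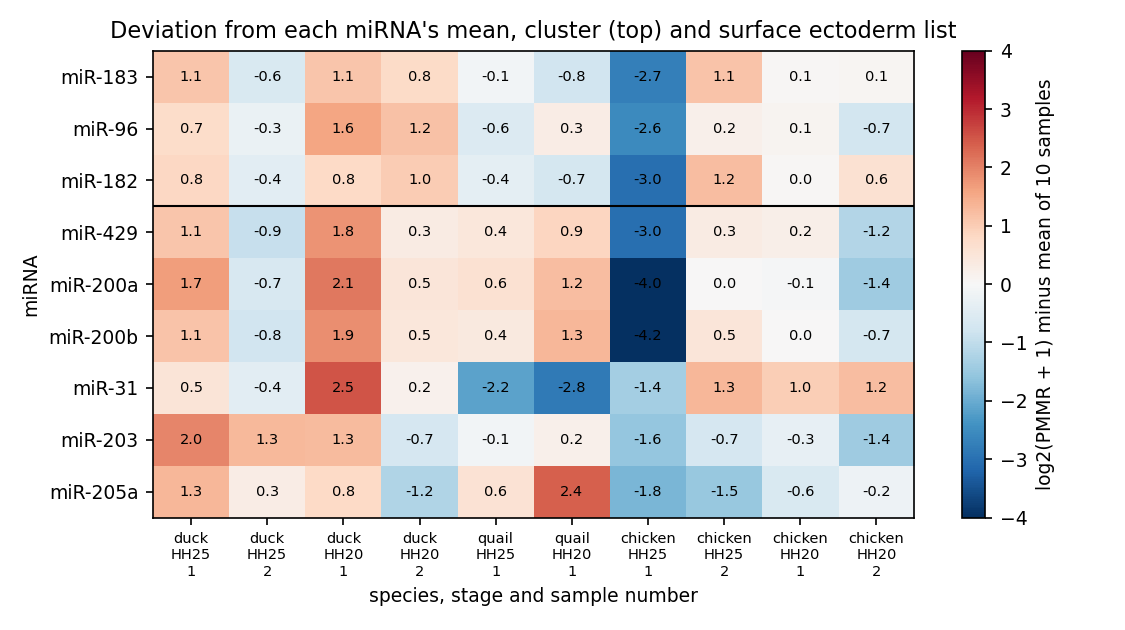
Deviation of log2(PMMR + 1) from the mean over the 10 samples for the 3 cluster members (top) and the 6 miRNAs of the surface ectoderm list (below the line), with samples in columns by species, stage and sample number. The column of the first chicken sample at HH25 is blue throughout, and the miR-200 family (miR-429, miR-200a, miR-200b) is nearer to the cluster in its pattern than the other 3 ectodermal miRNAs.

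The blood list (miR-451, miR-144 with its star strand, miR-142, miR-223 and miR-150) summed to 446 to 2937 PMMR. Its lowest sum was in the first chicken sample of HH25 and its highest in the first duck sample of HH20, as for the surface ectoderm list. Between these extremes the order of the samples differed. The second chicken sample at HH20 held 2583 PMMR of the blood list and 408 PMMR of the ectoderm list, and that at HH25 held 1102 and 726 PMMR. 6 of its 7 miRNAs had a positive difference of duck from chicken, with a median of 1.20, and 0 of 7 a positive difference between HH25 and HH20, with a median of -0.88. 0 of 7 passed limma's test in either. Without the first chicken sample of HH25 the medians were 0.81 (5 of 7 positive) and -0.59 (1 of 7 positive), and 2 passed as higher in duck, miR-142-3p and the star strand of miR-144. Calls were frequent in that fit, with 42 of all 186 miRNAs passing in either direction. The smooth muscle list (miR-143 and miR-145, both strands) summed to 5208 PMMR in that chicken sample and 37942 PMMR or more in the others. 3 of its 4 miRNAs had a positive difference of duck from chicken (median 0.67) and 0 of 4 a positive one between HH25 and HH20 (median -0.55), and without that sample the medians were -0.12 and 0.10.

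The neural list (miR-137, miR-128, miR-7, miR-129, miR-132 and miR-338) summed to 729 to 3623 PMMR and was highest in the first chicken sample at HH25, where the cluster was lowest, and lowest in the second, where miR-183 and miR-182 were highest. In the first, miR-137, miR-7 and both strands of miR-129 and miR-338 were at their highest, miR-132 at its lowest, and miR-132* and miR-128 at neither. 4 of 9 miRNAs had a positive difference of duck from chicken (median -0.11) and 5 of 9 one between HH25 and HH20 (median 0.12). Without the first chicken sample of HH25 these were 8 of 9 (median 0.30) and 4 of 9 (median -0.03), with miR-129-5p passing as higher in duck and miR-7 as lower at HH25. Those fits called 42 of all 186 miRNAs for duck against chicken and 17 for stage. The eye and lens list (miR-204, miR-211 and miR-184) summed to 143 to 2024 PMMR and was lowest in the quail samples, as was miR-184 (67.2 PMMR at HH20 and 135 PMMR at HH25). miR-204 (18.7 PMMR) and miR-211 (18.1 PMMR) were lowest in the first duck sample at HH20. 0 of 3 list members had a positive difference of duck from chicken and 3 of 3 one between HH25 and HH20. miR-204 and miR-211 had nearly equal values in every sample, so these counts may not rest on 3 separate measurements. Whether the 2 rows share reads was not tested. Without the first chicken sample of HH25 these counts were the same, and miR-184 passed as lower in duck and as higher at HH25, among the 42 and 17 miRNAs called. The part of the cells that these lists mark in the levels of the cluster was not tested.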

How the data were processed

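The authors sequenced small RNA on the Illumina GAIIX, removed adapters, matched reads to mature chicken and human miRNAs (miRanalyzer release 1, miRBase release 16; genome build gga3) with up to 2 mismatches and listed those that exceeded 15 PMMR in some library. Each of the 11 deposited files holds PMMR (reads per 1000000 of the library total, 53.5% to 85.1% of them on the miRNAs) and that total. For the chicken HH25 second sample, the mean of its 2 runs was used. Every value times its total was a whole number of reads within 0.1.

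Values were transformed to log2(PMMR + 1) and compared with limma 3.58.1 (R 4.3.3; trended prior), adjusting p-values by Benjamini-Hochberg over 186 miRNAs with a threshold of 0.05. Fold changes on this scale understate those of low miRNAs. Fits across species used all 10 samples with species or stage as a term, duck against chicken over both stages used their 8 samples, and fits within stage or species used 4 groups of 2. Ratios used exact permutations (Python 3.11.15, numpy 2.4.6, pandas 2.3.3, scipy 1.17.1; figures matplotlib 3.10.9). The limma tests of stage and of duck against chicken were run on simulated data, with 40 of 186 miRNAs changed 4-fold. They recovered 79.4% of the changes for stage and 70.5% for duck against chicken. The simulated scatter was independent between miRNAs, with no library that stood apart as the first chicken sample at HH25 does. The simulation therefore does not show how the tests behave with such a library. Named are the members, the 5 other miRNAs most like miR-183, and miRNAs of the marker lists; miR-103 was named after its value was seen, and the values of marker lists and likeness without the first chicken HH25 sample were added then. Members and lists were chosen with earlier results of these data known. Alternatives were pseudocounts of 0.1 and 10, median-centring, scaling to miRNA reads, a mean of at least 15 PMMR, no trend, voom on recovered reads, each run alone, the sample number as a block, and leaving out each sample.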

Additional observations from a re-analysis of the deposited data

How the results depend on the processing

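Over the 10 alternatives that kept all samples, 267 of 270 values (27 member differences) had the direction and side of the threshold given above, and none passed. Many of these values could not change direction. Leaving out the trend or the low miRNAs alters only standard errors and p-values, and a single run leaves comparisons without chicken at the same difference. With the sample number as a replicate block, quail minus chicken turned to 0.15 for miR-183 and 0.22 for miR-182 (adjusted p = 0.953 and 0.929 by limma). Stage differences and those of duck from chicken kept their size, which the balanced design fixes in advance (miR-96 for stage adjusted p = 0.353 by limma). No call of a member changed, while the miRNAs called numbered 7 for stage and 24 for duck against chicken. Same-numbered pools did not deviate together throughout (r = 0.61 for duck and chicken at HH20, 0.01 for the chicken stages). Median-centring turned the difference of stage effects of miR-96 to 0.060, put duck minus chicken of miR-96 at 1.39, and moved the miRNAs called to 16 (6 as reported) for stage and to 10 (18 as reported) for duck against chicken, as did scaling to miRNA reads for duck against chicken (10). The cause was not tested.

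Leaving out 1 sample at a time ranged as follows, and limma differences of members that are not listed kept their direction. Directions held for miR-96 in stage across species (-1.41 to -0.57). They also held in duck minus chicken over both stages for miR-96 (1.03 to 2.13) and miR-183 (0.16 to 1.71). At HH20 duck minus chicken gave 0.70 to 1.04 (miR-183), 1.26 to 2.12 (miR-96) and 0.30 to 0.88 (miR-182). Across species, stage gave -1.02 to 0.17 (miR-183) and -1.29 to 0.019 (miR-182), and duck minus chicken -0.058 to 1.64 (miR-182). Duck minus quail gave 0.30 to 1.75 (miR-183) and 0.47 to 1.73 (miR-182). Quail minus chicken gave -0.89 to 0.65 (miR-183) and -1.17 to 0.46 (miR-182). Stage in chicken gave -2.79 to 1.08 (miR-183), -2.24 to 0.50 (miR-96) and -3.35 to 0.91 (miR-182), and in duck -1.55 to 0.18 (miR-183). The difference of stage effects gave -1.76 to 2.11, -1.65 to 1.10 and -1.62 to 2.63 (miR-183, miR-96, miR-182). Duck minus chicken at HH25 gave -0.89 to 2.98 (miR-183) and -1.03 to 3.22 (miR-182). Over both stages, the difference of duck from chicken in the log2 ratio of miR-182 to miR-183 gave -0.24 to 0.032. The miRNAs called numbered 2 to 17 for stage and 6 to 42 for duck against chicken, with 17 and 42 without the first chicken sample of HH25.

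Log2 ratios under the 2-fold rule turned in the second samples for duck over chicken at HH25 (miR-183 -1.76, miR-96 -0.48, miR-182 -1.67), for HH25 over HH20 in chicken (1.07, 0.97 and 0.62 in that order) and in duck (miR-183 -1.39, miR-182 -1.45). They turned with the mean of both samples for quail over chicken at HH25 (miR-183 -0.34, miR-182 -0.70) for HH25 over HH20 in chicken (miR-183 0.17) and, starting near 0, in duck (miR-183 -0.45, miR-182 -0.58). The planned quasi-likelihood count test was not run. Depth limits miR-96 most.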

Other observations

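The following patterns were noticed in the values and then computed. The ratio of miR-182 to miR-183 was higher in the second sample (5 embryos) than in the first (40 embryos) in 4 of 4 pairs of the same species and stage, by 1.31-fold to 1.48-fold. An exact two-sided sign-flip test over the 4 pairs gave p = 0.125, the smallest p that 4 pairs allow. Pairs that all go one way always give the smallest p, so the test adds nothing to the count. Pool size and whatever else differed between the first and second samples cannot be told apart.

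The ratio of miR-96 to miR-183 was lower at HH25 than at HH20 in 5 of 5 pairs of the same species and sample number, with HH25 at 0.339-fold to 0.946-fold of HH20. In the second chicken pair the HH25 value averages 2 runs, at 0.0206 and 0.0118, against 0.0168 at HH20. With the higher run alone that pair goes the other way, so the count depends on averaging. Both chicken pairs (0.0298 against 0.0316, 0.0157 against 0.0168) and the second duck pair (0.0382 against 0.0403) differed by less than these 2 runs. The exact two-sided sign-flip test gave p = 0.0625, the smallest p that 5 pairs allow, which again follows from the count alone. The permutation test of the same stage difference gave exact p = 0.139. A shared sample number does not show that the paired pools share an origin. The ratio of miR-182 to miR-183 was lower at HH25 in 4 of 5 pairs (exact p = 0.125).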
